A study of Homo sapiens with 10 samples.

Results

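The guanylate-binding protein genes GBP1, GBP2, GBP3, GBP4 and GBP5 and the gene IDO1 were followed in the established human cell line HuCCT1, derived from a bile duct cancer (cholangiocarcinoma). They were read by 12 probe sets, out of 54613 probe sets that were not controls, and they are 6 of 19775 genes with a probe set of their own. All probe sets annotated with exactly 1 of these 6 symbols were taken, which gave 4 for GBP1, 2 each for GBP2, GBP4 and GBP5, and 1 each for GBP3 and IDO1. The 6 genes were chosen by their measured values on these same arrays, because GBP1 was lower while other interferon-stimulated genes were higher in cells with the construct. Their differences between the vectors are therefore given as a description, with no p.

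The cells carried either the YAP1 construct labelled YAPS94A or an empty vector, with 5 arrays for each. Sample labels and title give the change as S94A, which is known to impair the contact of YAP1 with TEAD transcription factors, whereas the design text names S127A, known to make YAP1 constitutively active. The arrays do not settle which one the cells carried, so the sample label is used here. Both vectors were studied in this 1 cell line only. Separate cultures are not stated for the 5 arrays, so each p-value given below reflects only array-to-array spread, possibly of technical origin.

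Guanylate-binding proteins are large GTPases of the dynamin superfamily that are induced by interferons, above all by interferon gamma. They assemble on intracellular bacteria and on vacuoles that hold pathogens, and GBP1 forms a coat on bacteria that recruits caspase-4. GBP1, GBP2 and GBP5 carry a C-terminal lipid (prenyl) anchor. IDO1 encodes indoleamine 2,3-dioxygenase, which turns tryptophan into the precursor of kynurenine, is also strongly induced by interferon gamma, and is known in tumours for restraining T cells.

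The bases upstream of the transcription start are shown for GBP1, GBP3 and GBP4, because only these GBP genes had a promoter sequence to show. The sequences are RefSeq's, of the build GRCh38.p14, and cover the 250 bases before the start, written 5′ to 3′ on the strand of the gene. 3 of the 5 GBP genes matched the table of promoters. Capitals mark a match to one of 4 motifs searched on both strands.
GBP1, chr1:89065209-89065458, minus strand: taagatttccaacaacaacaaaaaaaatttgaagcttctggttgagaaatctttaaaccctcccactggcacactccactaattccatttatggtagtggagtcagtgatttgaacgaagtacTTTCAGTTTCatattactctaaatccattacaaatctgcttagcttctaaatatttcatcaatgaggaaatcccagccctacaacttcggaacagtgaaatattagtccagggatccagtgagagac
GBP3, chr1:89022867-89023116, minus strand: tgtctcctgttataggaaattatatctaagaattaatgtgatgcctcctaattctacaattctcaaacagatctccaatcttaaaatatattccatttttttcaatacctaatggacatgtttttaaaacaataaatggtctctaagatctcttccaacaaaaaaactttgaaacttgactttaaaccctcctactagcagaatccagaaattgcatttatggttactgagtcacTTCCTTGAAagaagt
GBP4, chr1:89198943-89199192, minus strand: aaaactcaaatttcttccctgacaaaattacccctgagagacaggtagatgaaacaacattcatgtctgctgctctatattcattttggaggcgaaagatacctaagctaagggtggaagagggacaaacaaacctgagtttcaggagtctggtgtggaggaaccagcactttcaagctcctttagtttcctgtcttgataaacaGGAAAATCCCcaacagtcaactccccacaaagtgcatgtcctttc

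The motifs were the core of the interferon-stimulated response element (ISRE), GAAANNGAAA, the interferon gamma-activated site (GAS), TTCNNNGAA, the TEAD motif GGAATG, and the NF-kB motif. The capitals are an ISRE core on the opposite strand in GBP1, 127 to 118 bases before the start, a GAS in GBP3, 15 to 7 bases before the start, and an NF-kB motif on the opposite strand in GBP4, 45 to 36 bases before the start. None of the 3 stretches held GGAATG. Of 35116 upstream stretches of the same length, 3.02% held the ISRE core, 6.57% the GAS, 5.21% the NF-kB motif and 11.9% the TEAD motif. A match says only that these letters are present in the stretch.

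All values are the deposited log2 signals, on which 1 unit is a 2-fold difference. Over the 10 arrays they lay between 2.86 and 14.43, with a lower quartile of 4.73 and a median of 6.27. Array medians lay between 6.25 and 6.28, and the correlation of 2 arrays over all probe sets was 0.9957 to 0.9991 for the same vector and 0.9867 to 0.9902 for different ones. The YAP1 transcript averaged 12.85 ± 0.18 with YAPS94A and 12.32 ± 0.22 with empty vector (SD, n = 5 each), a difference of 0.52 ± 0.11 (SE, limma adjusted p = 0.00277). Every difference subtracts the empty vector mean from the YAPS94A mean. Where a standard error (SE) is given, it comes from limma, a linear model. For the 12 probe sets, and for further probe sets of other genes, the fit was over all probe sets. For the brightest probe sets of other genes, and in the figure of chromosome order, it was over the genes. Of the biliary epithelial markers 8 of 8 were bright, with group means of at least 12.71 with YAPS94A and at least 9.52 with empty vector. Signals of different probe sets are not set against each other, because probes differ in brightness.

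GBP1 was lower with the construct on 3 of its 4 probe sets, and GBP4 was higher on both of its probe sets. GBP2 was lower on its dimmer probe set, while GBP3, GBP5 and IDO1 overlapped between the vectors throughout. In all, the 5 YAPS94A arrays and the 5 empty vector arrays did not overlap on 6 of the 12 probe sets, 2 higher and 4 lower. Over all 54613 probe sets 23.0% did not overlap, 11.3% higher and 11.6% lower. Because this contrast chose the genes, nothing is read from these shares.

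**Figure D1:**
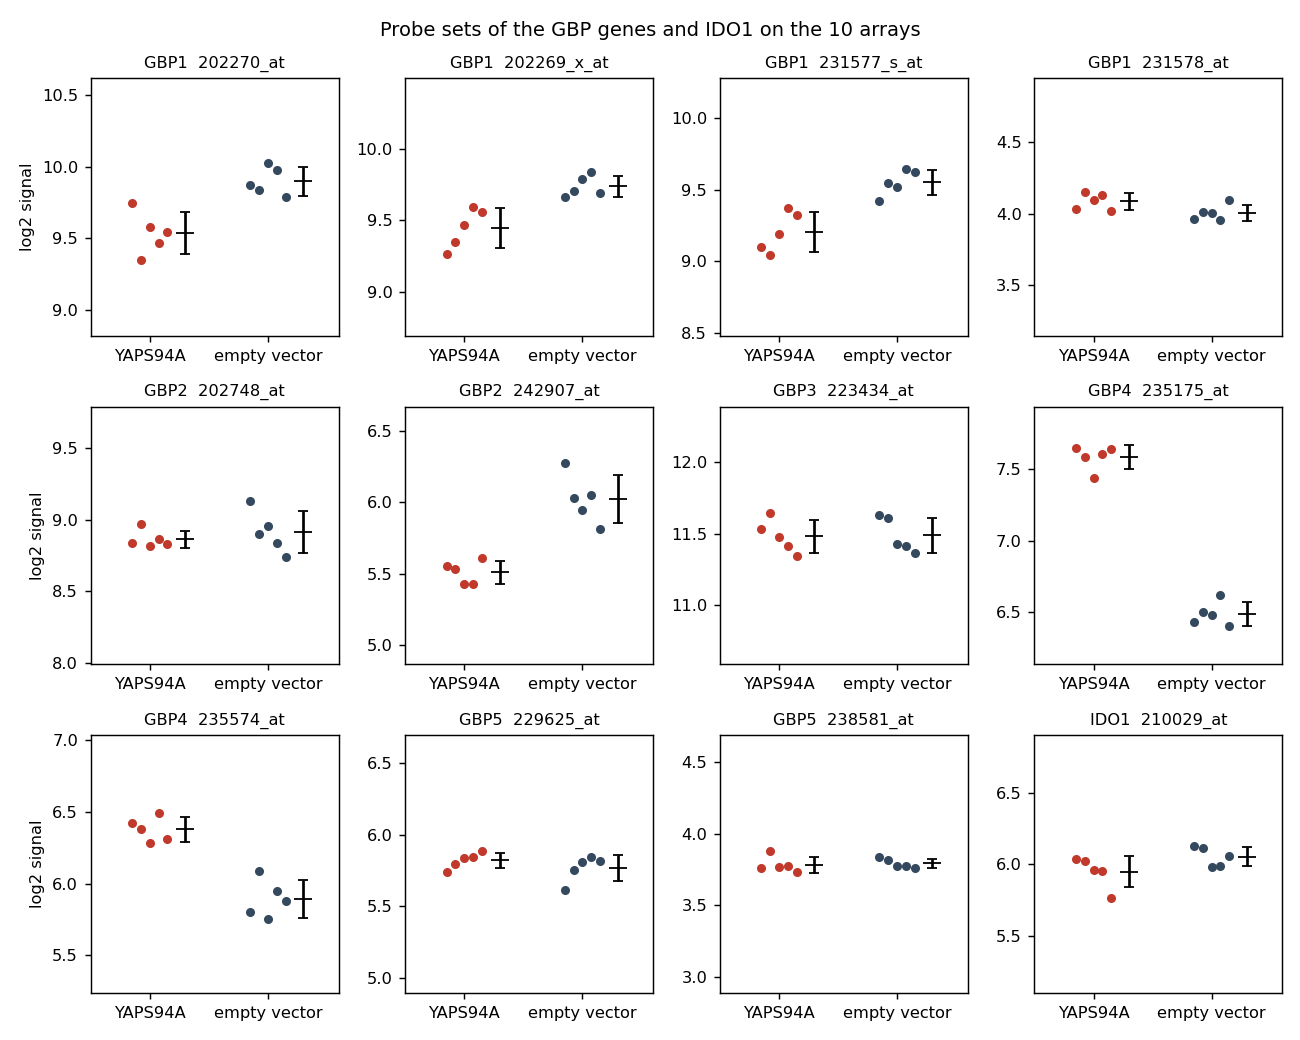
Log2 signal of each of the 12 probe sets on the 5 YAPS94A arrays (left, red) and the 5 empty vector arrays (right, dark), with mean ± SD beside the points; every panel spans 1.8 log2 units. The vectors are apart on 3 GBP1 probe sets, on GBP2 242907_at and on both GBP4 probe sets, and they overlap on the other 6.

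GBP1 read 9.74, 9.35, 9.57, 9.46 and 9.54 on the YAPS94A arrays, against 9.87, 9.83, 10.02, 9.98 and 9.78 on the empty vector arrays, by its brightest probe set, 202270_at. Every YAPS94A array lay below every empty vector array, with only a narrow gap between YAPS94A array 1 and empty vector array 5. The means were 9.53 ± 0.15 with YAPS94A and 9.90 ± 0.10 with empty vector (SD, n = 5 each), a difference of -0.36 ± 0.073 (SE), or 1.29-fold lower.

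The probe set 202269_x_at of GBP1 averaged 9.45 ± 0.14 with YAPS94A and 9.74 ± 0.072 with empty vector (SD, n = 5 each), a difference of -0.29 ± 0.066 (SE). The suffix _x_at marks probes that may also bind other transcripts, and GBP genes resemble each other. The probe set 231577_s_at, whose suffix marks probes shared by several transcripts, averaged 9.20 ± 0.14 with YAPS94A and 9.55 ± 0.089 with empty vector, a difference of -0.35 ± 0.069. On both of these the YAPS94A arrays also lay below all empty vector arrays. The fourth probe set, 231578_at, lay below the lower quartile of signals, at 4.09 ± 0.059 with YAPS94A and 4.01 ± 0.056 with empty vector, and is too dim to show a direction.

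The 3 bright GBP1 probe sets gave similar differences between the vectors but did not vary alike between arrays of 1 vector. The deviations from the group means correlated at 0.82 between 202269_x_at and 231577_s_at over the 10 arrays, and at -0.048 and -0.0325 between 202270_at and these. YAPS94A array 1 was the highest of its group on 202270_at (9.74) and the lowest on 202269_x_at (9.26). RNA quality, read as the 3′ minus 5′ signal of the GAPDH and ACTB control probes, moved with the arrays too. Its median was 0.543 with YAPS94A (range 0.445 to 0.822) and 0.676 with empty vector (range 0.476 to 0.851). With this measure as a covariate, added to all probe sets, GBP1 differed by -0.37 ± 0.074 (202270_at), -0.32 ± 0.053 (202269_x_at) and -0.38 ± 0.036 (231577_s_at).

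**Figure D2:**
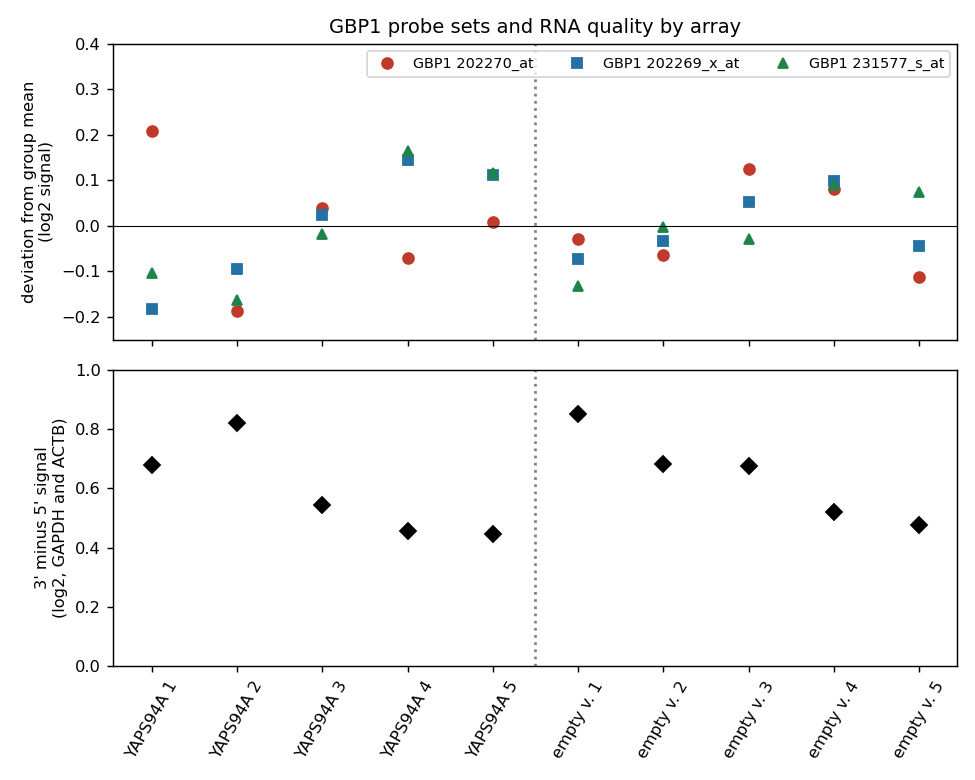
Upper panel, deviation of each array from its group mean for the 3 bright GBP1 probe sets (log2 signal); lower panel, 3′ minus 5′ log2 signal of the GAPDH and ACTB control probes on the same arrays, with YAPS94A arrays left of the dotted line and empty vector arrays right of it. The squares and triangles mostly keep close to each other. The circles part from them most on YAPS94A array 1, where 202270_at was the highest of its group and 202269_x_at the lowest. They also part on YAPS94A array 4, where 202270_at lay below its group mean and the others above theirs.

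GBP4 read 7.65, 7.59, 7.44, 7.61 and 7.64 on the YAPS94A arrays, against 6.43, 6.50, 6.48, 6.62 and 6.41 on the empty vector arrays, by its brighter probe set, 235175_at. The groups were far apart, since the lowest YAPS94A array stood well above the highest empty vector array. The difference was 1.096 ± 0.053 (SE), or 2.14-fold higher, from means of 7.58 ± 0.083 with YAPS94A and 6.49 ± 0.082 with empty vector (SD, n = 5 each). The dimmer probe set of GBP4, 235574_at, showed the same direction at a smaller size. It averaged 6.38 ± 0.085 with YAPS94A and 5.89 ± 0.13 with empty vector, a difference of 0.49 ± 0.067, or 1.40-fold higher.

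The 2 probe sets of GBP2 did not move alike. The brighter, 202748_at, read 8.84, 8.97, 8.82, 8.86 and 8.83 with YAPS94A and 9.13, 8.90, 8.96, 8.84 and 8.74 with empty vector, and all 5 YAPS94A arrays lay inside the range of the empty vector arrays. Its difference was -0.050 ± 0.067 (SE). The dimmer, 242907_at, read 5.55, 5.54, 5.43, 5.43 and 5.61 with YAPS94A and 6.28, 6.03, 5.95, 6.05 and 5.81 with empty vector. There every YAPS94A array was below every empty vector array, and the difference was -0.51 ± 0.077, or 1.43-fold lower. Which GBP2 transcripts each probe set reads was not analysed here.

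GBP3 was level. Its single probe set read 11.53, 11.65, 11.48, 11.41 and 11.34 with YAPS94A and 11.63, 11.61, 11.43, 11.41 and 11.37 with empty vector, a difference of -0.0075 ± 0.070 (SE). In both groups the arrays numbered 1 and 2 were the brightest for GBP3.

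GBP5, a prenylated GBP like GBP1 and GBP2, read 5.74 to 5.88 with YAPS94A and 5.61 to 5.85 with empty vector on its brighter probe set, 229625_at. The ranges overlapped, with a difference of 0.054 ± 0.050 (SE). The other GBP5 probe set, 238581_at, was below the lower quartile of signals on all arrays, at 3.78 ± 0.055 with YAPS94A and 3.79 ± 0.033 with empty vector (SD, n = 5 each). Both probe sets of GBP5 lay below the median of all signals, and without detection calls a low signal does not show whether the gene was expressed.

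IDO1 read 6.04, 6.02, 5.96, 5.96 and 5.76 on the YAPS94A arrays, against 6.13, 6.11, 5.98, 5.99 and 6.06 on the empty vector arrays. The groups overlapped, although 3 of the 5 YAPS94A arrays were below the lowest empty vector array. The difference was -0.104 ± 0.057 (SE), or 1.07-fold lower, from means of 5.95 ± 0.11 with YAPS94A and 6.05 ± 0.068 with empty vector (SD, n = 5 each). IDO1 thus lay a little below the median of all signals with both vectors.

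**Figure D3:**
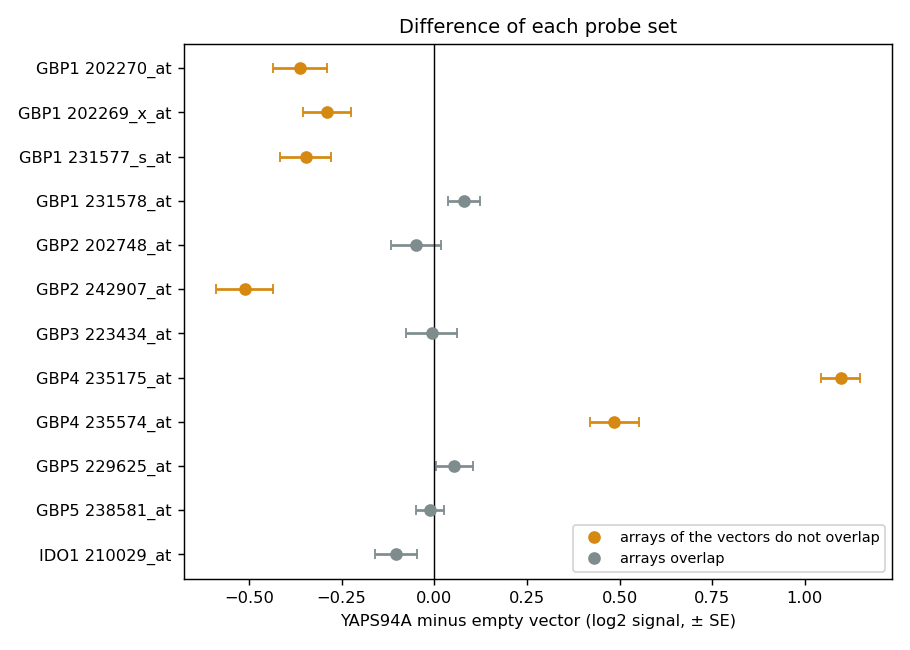
Difference between YAPS94A and empty vector for each of the 12 probe sets (log2 signal, points with SE bars), orange where the arrays of the vectors do not overlap and grey where they do. GBP4 stands at 1.096 and 0.49, 3 GBP1 probe sets lie between -0.36 and -0.29, GBP2 242907_at lies at -0.51, and the 6 grey points lie close to 0.

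The GBP genes form 1 cluster on the short arm of chromosome 1, and the construct's difference was not shared along it. In chromosome order the brightest probe sets of GBP3, GBP1, GBP2, GBP4 and GBP5 differed by -0.0075, -0.36, -0.050, 1.096 and 0.054. GBP7, which lies between GBP2 and GBP4, was not analysed here. GBP6, the last of the cluster, differed by -0.37 ± 0.047 (SE, limma adjusted p = 6.37e-05) on a probe set below the lower quartile with both vectors (3.78 with YAPS94A and 4.15 with empty vector). Its other probe set differed by -0.0085 ± 0.041, so no direction is given for GBP6. The pseudogene GBP1P1 differed by -0.079 ± 0.048 at a similarly low level.

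Among the 10 measured genes before the cluster, limma called 2 higher and 1 lower and left 7 uncalled, with a median difference of -0.039. Among the 10 after it 1 was higher, 3 were lower and 6 did not pass, with a median of -0.080. The largest of these was LRRC8C, a subunit of the volume-regulated anion channel, which fell by 0.81 ± 0.067 (SE, limma adjusted p = 1.51e-06). LRRC8D, another subunit, fell by 0.31 ± 0.051, and KYAT3, a kynurenine aminotransferase on the other side of the cluster, rose by 0.15 ± 0.049 (adjusted p = 0.0344), a call lost without any 1 of 6 arrays. The 30 nearest genes above the median level had a median difference of -0.090 around GBP1 and -0.14 around GBP4. Relative to these medians GBP1 was at -0.27 and GBP4 at 1.24.

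**Figure D4:**
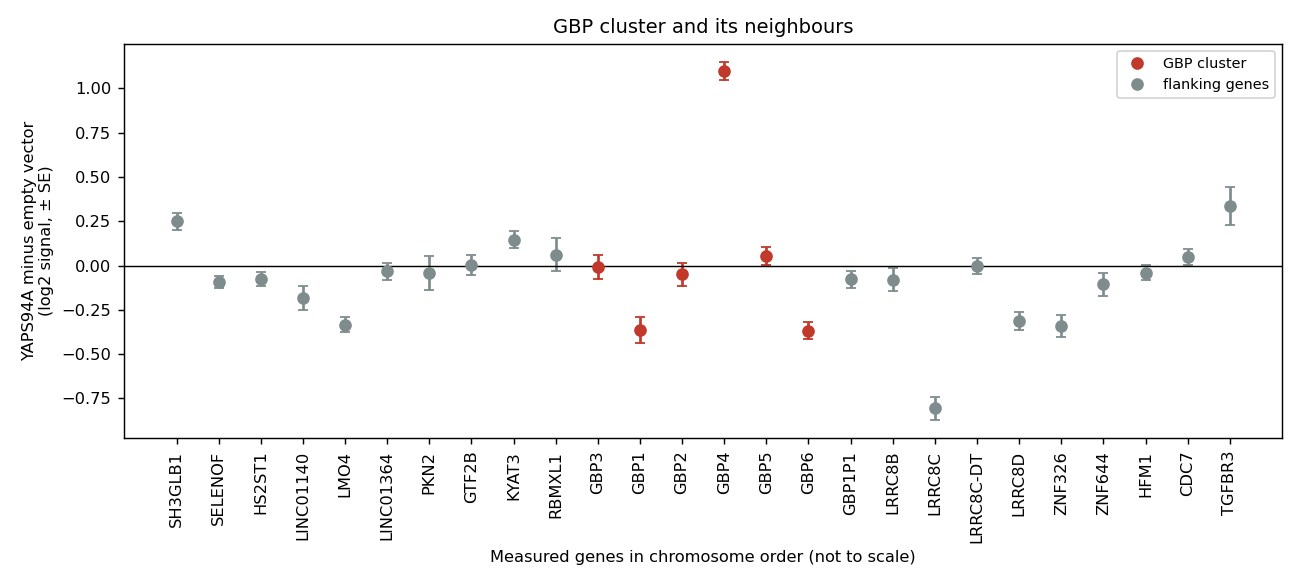
Difference between YAPS94A and empty vector (log2 signal, points with SE bars, brightest probe set of each gene) for the measured genes of the GBP cluster in red and 10 genes on either side in grey, in chromosome order and not to scale. GBP4 stands alone at 1.096, GBP1 is at -0.36 between GBP3 and GBP2 near 0, and LRRC8C is the lowest at -0.81.

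Genes of the interferon gamma pathway were compared by limma over all 19775 genes, of which 18.6% were higher and 17.6% were lower at an adjusted p under 0.05. Each gene was represented by its brightest probe set. The lists were chosen with earlier results of these data known, so their directions are not independent evidence. In bulk RNA, fewer cells of a type and less RNA per cell cannot be told apart.

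Of 18 measured genes of interferon gamma signalling 5 were higher, 3 were lower and 10 did not pass, with a median difference of 0.025, beside -0.0038 over all genes. The cytokine gene IFNG itself lay below the lower quartile with both vectors (3.95 with YAPS94A and 4.04 with empty vector). IFNGR1, the ligand-binding receptor chain, fell by 0.41 ± 0.042 (adjusted p = 8.57e-06). It read 10.41 ± 0.025 with YAPS94A and 10.82 ± 0.078 with empty vector (SD, n = 5 each). Relative to its chromosome neighbours IFNGR1 was at -0.093 (adjusted p = 0.0974), and on its brightest probe set without the suffix _s_at it was at -0.19 (adjusted p = 0.386), so the call was lost in both. IFNGR2, the second chain, differed by -0.00043 ± 0.057 (adjusted p = 0.997), and the receptor-bound kinase gene JAK2 by -0.17 ± 0.065 (adjusted p = 0.0662). JAK2 passed as lower with a replicate block (adjusted p = 0.0151), with quantile normalization (0.0342), with the mean of its probe sets (0.0033), with the RNA quality covariate (0.032) and without any 1 of 3 arrays (YAPS94A array 1, empty vector array 4 or empty vector array 5). Relative to its chromosome neighbours it turned to 0.29 (adjusted p = 0.0035). Its adjusted p reached 0.152 among the other settings, so no direction is given for JAK2.

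IRF1, the transcription factor through which interferon gamma reaches ISREs, rose by 0.48 ± 0.038 (adjusted p = 1.01e-06). IRF9, part of the ISGF3 complex of type I interferon signalling, rose by 1.76 ± 0.10. IFI35 and its partner NMI rose by 1.499 ± 0.068 and 0.52 ± 0.038.

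Of 49 measured genes induced by interferon gamma 29 were higher, 8 were lower and 12 did not pass, with a median of 0.41. LGALS9 (galectin-9) rose by 1.71 ± 0.056, SECTM1 by 1.49 ± 0.054, APOL3, an apolipoprotein L that disrupts bacterial membranes, by 1.47 ± 0.083, and the cytokine gene IL15 by 1.46 ± 0.061. The CXCR3 ligands, which attract T cells, differed among themselves. CXCL10 rose by 1.09 ± 0.14, to 5.57 ± 0.33 with YAPS94A, against 4.49 ± 0.14 with empty vector, where it was below the lower quartile. CXCL11 rose by 0.41 ± 0.087, and CXCL9 differed by -0.056 ± 0.061 (adjusted p = 0.547), or by 0.17 relative to its chromosome neighbours (adjusted p = 0.0463, over all alternatives up to 0.848).

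Both ligands of the T cell receptor PD-1 were among the 8 that were lower. CD274 (PD-L1) fell by 1.01 ± 0.044 (adjusted p = 6.35e-09), reading 11.88 ± 0.073 with YAPS94A and 12.89 ± 0.054 with empty vector (SD, n = 5 each). Relative to its chromosome neighbours CD274 was at -0.60, still past the test. PDCD1LG2 (PD-L2) fell by 1.097 ± 0.072, and TNFSF13B, the B cell factor BAFF, by 1.14 ± 0.11. Over 22 alternatives PDCD1LG2 ranged from -1.148 to -0.736 and kept its call. PDCD1LG2 and TNFSF13B were named after their values were seen. Without _x_at and _s_at probe sets, 4 genes of the list were lower rather than 8, and 20 were higher rather than 29. The brightest probe sets of CD274 and PDCD1LG2 carry neither suffix.

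The antiviral interferon-stimulated genes were 33 higher of 36 and 0 lower, with 3 not past limma and a median of 0.98. By limma 0 of the 36 were lower at an unadjusted p under 0.05 either, and 0 had a difference below 0. Higher interferon-stimulated genes were part of the reason for choosing the 6 genes, so these counts only describe that choice. The largest rises of the list were in CMPK2 (3.995 ± 0.19), RSAD2 (3.72 ± 0.24), MX2 (3.57 ± 0.13) and OASL (3.11 ± 0.11). MX1 and MX2 belong to the same superfamily of large GTPases as the GBP proteins. Of 15 measured dynamin superfamily genes 6 were higher, 3 lower and 6 not past the test (median 0.067). Beside MX1 (2.13 ± 0.095) and MX2, DNM3, a neuronal dynamin, rose by 1.72 ± 0.083 and ATL1, the atlastin that fuses endoplasmic reticulum membranes, by 1.14 ± 0.045.

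Among 22 genes of GBP partners, prenylation and inflammasomes 12 were higher, and 4 lower, while 6 did not pass, and the median difference was 0.21. CASP1, the caspase of canonical inflammasomes, rose by 1.18 ± 0.055, and CASP4, which binds lipopolysaccharide on GBP1-coated bacteria, by 0.67 ± 0.036, to 12.92 ± 0.025 with YAPS94A, against 12.25 ± 0.053 with empty vector (SD, n = 5 each). GSDMD, the pore-forming gasdermin D that these caspases cleave, rose by 0.53 ± 0.093, and the adaptor PYCARD by 0.68 ± 0.053. RNF213, a ubiquitin ligase that marks intracellular bacteria, rose by 0.71 ± 0.051. Its probe sets without the suffix _s_at were divided. The brightest of them was at 0.14 and did not pass. Others were at 0.78, 0.85 and 0.91 and passed in the fit over all probe sets. The rest were at 0.17 and -0.018 and did not pass there. The DNA sensor AIM2 and the sensor NLRP3 fell, with differences of -0.73 ± 0.12 and -0.53 ± 0.052. PIM1, the kinase that phosphorylates GBP1 and holds it in the cytosol, rose by 0.67 ± 0.14. PGGT1B, a subunit of a prenyltransferase, fell by 0.24 ± 0.054. CASP4, GSDMD, PYCARD, NLRP3, PIM1 and PGGT1B were named after their values were seen.

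Of the 26 genes of tryptophan and kynurenine metabolism around IDO1 3 were higher and 10 lower, while 13 did not pass, and the median difference was -0.052. KYNU, the kynureninase that degrades kynurenine downstream of IDO1, fell by 1.01 ± 0.059 (adjusted p = 7.70e-08), reading 11.12 ± 0.11 with YAPS94A and 12.12 ± 0.080 with empty vector (SD, n = 5 each). The other 3 KYNU probe sets were lower by -1.17, -1.20 and -1.55. SLC16A10, a carrier of aromatic amino acids, fell by 0.78 ± 0.072 to 4.20, below the lower quartile of signals. CYP1B1, a target of the kynurenine-sensing receptor AHR, fell by 0.44 ± 0.085, and AADAT, a kynurenine aminotransferase, rose by 0.32 ± 0.054. AHR itself differed by -0.026 ± 0.045 (adjusted p = 0.713). On the same list AHRR rose by 0.28 ± 0.079 and TIPARP fell by 0.14 ± 0.035. CYP1A1, below the lower quartile with both vectors, did not pass (0.092 ± 0.061), so no direction is given for AHR targets. AHR, AHRR, TIPARP and CYP1A1 were named after their values were seen.

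The other enzymes that open the tryptophan ring were dim. IDO2, the neighbour of IDO1, lay below the lower quartile (3.91 with YAPS94A and 3.86 with empty vector). TDO2 read 4.71 with YAPS94A and 4.98 with empty vector and differed by -0.27 ± 0.085 (adjusted p = 0.0239), a call lost when any 1 of 4 arrays was left out. KMO, the hydroxylase of kynurenine, differed by -0.077 ± 0.076 (adjusted p = 0.492). WARS1, the tryptophanyl-tRNA synthetase that interferon gamma also induces, differed by -0.18 ± 0.099 (adjusted p = 0.197) on its brightest probe set and by -0.22 ± 0.055 on the other (adjusted p = 0.0106 over all probe sets). WARS1 passed as lower with the mean of its probe sets (adjusted p = 0.0401) and with the RNA quality covariate (0.0273). Its adjusted p reached 0.392 among the other settings.

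Among NF-kB and inflammatory genes, which inflammatory cytokines induce as they do GBP1 in some cell types, 17 of 21 were lower and 1 was higher, while 3 did not pass, and the median difference was -0.71. PTGS2, CXCL1, CXCL3 and CXCL8 fell, with differences of -3.08 ± 0.15, -2.94 ± 0.043, -2.19 ± 0.054 and -2.09 ± 0.15. The gene that was higher was RELA, a subunit of NF-kB, at 0.28 ± 0.069, and this call was lost relative to its chromosome neighbours (0.075, adjusted p = 0.424).

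**Figure D5:**
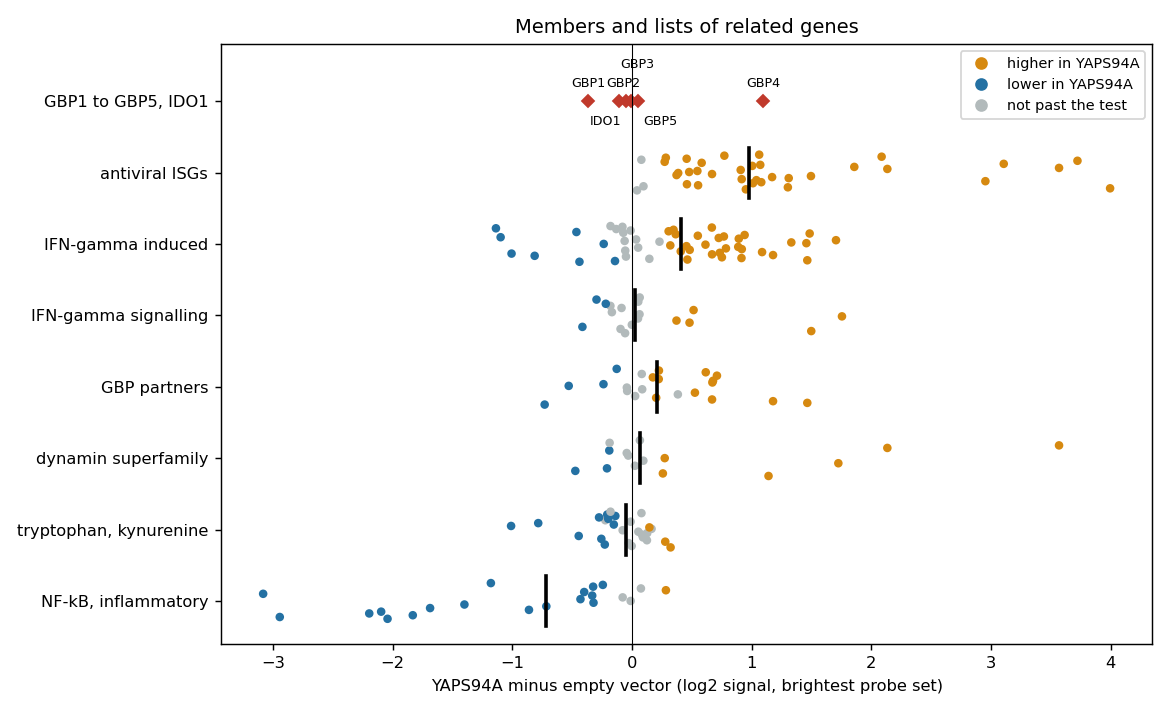
Difference between YAPS94A and empty vector (log2 signal, brightest probe set) for the 6 genes in the top row and for the genes of 7 lists below, coloured by limma's call at an adjusted p under 0.05, with a black bar at the median of each list. GBP1 lies left of every antiviral gene, which partly reflects how the genes were chosen. GBP4 lies near the antiviral median of 0.98, and the inflammatory genes are centred on -0.71.

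Markers of other cell types were followed beside these genes. Of 6 leukocyte markers 2 were lower, LYZ (-1.48 ± 0.12) and FCER1G (-0.33 ± 0.062), and the summed log2 level of the 6 was 31.56 to 32.10 with YAPS94A and 33.56 to 34.09 with empty vector. Without _x_at and _s_at probe sets both calls were lost, with LYZ at -0.068 (adjusted p = 0.309) and FCER1G at -0.23 (adjusted p = 0.0538). PTPRC and CD3E, which define leukocytes and T cells, were near the lower quartile of signals at 5.18 and 4.495 with YAPS94A and 5.25 and 4.49 with empty vector. Of 5 endothelial markers 0 passed in limma, 1 (TEK) had an unadjusted p under 0.05 and passed as lower with a replicate block, and their summed level was 23.99 to 24.80 with YAPS94A and 24.49 to 24.84 with empty vector. Of 5 fibroblast markers LUM was higher (2.67 ± 0.088), with a summed level of 35.63 to 36.39 with YAPS94A and 33.22 to 33.95 with empty vector. The other LUM probe set, without the suffix _s_at, differed by 0.49 ± 0.096, and COL1A1 passed as lower with a replicate block. Of 8 biliary epithelial markers 6 were higher in limma, by 3.29 ± 0.061 for the mucin gene MUC1, and all 8 differences were above 0. The summed level of the 8 was 107.17 to 107.67 with YAPS94A and 102.92 to 103.24 with empty vector. The part of these markers in the GBP and IDO1 values was not tested.

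Genes whose deviations from the group means were most like those of GBP1 202270_at over the 10 arrays were ORC6 (r = 0.957), THOC7 (0.922) and PRKCA (0.921), among 12225 genes above the median level. For IDO1 they were PTDSS1 (0.954), TTC4 (0.947) and RPL35A (0.941), among 12226 genes. These are the highest of many correlations over 10 arrays that share their processing and array numbers, and the other GBP1 probe sets did not follow 202270_at.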

How the data were processed

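Per the labels' protocols, HuCCT1 RNA was amplified by NuGEN Ovation reagents and hybridised as labelled cDNA to Affymetrix arrays. The authors deposited log2 signals of 54675 probe sets, of which 62 are controls; the sources used here do not give the summary and normalization steps. Precision is limited by the number of arrays. Gene symbols came from the platform's annotation and were brought up to date with RefSeq (GRCh38.p14): 41097 had 1 symbol, 1801 several and 11777 none. No filter on low values was applied, so all 12 probe sets of the 6 genes entered.

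The deposited log2 values were fitted with limma 3.58.1 in R 4.3.3 (lmFit, eBayes, no covariate, two-sided), once over all probe sets and once over 19775 genes by their brightest probe set, with Benjamini-Hochberg adjustment and a threshold of 0.05. The fit was tested on simulated data. The members, the lists and the tests were chosen with earlier results of these data known. Named genes are all members, a set of interferon gamma and kynurenine genes taken whatever their result, up to 4 genes per list with the largest differences past the test, the 3 genes most like GBP1 and IDO1 in deviation, and flanking genes of the cluster. IFNG, YAP1, RELA and the markers were named after their values were seen.

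Both vectors share the array numbers 1 to 5. For arrays with the same number, the correlation of deviations from the vector's mean was 0.102 to 0.59, above 0.1 in all 5 pairs, so the numbers were treated as a possible pairing that no label states. Beside leaving out each array, 12 alternatives were run: quantile normalization, median centring, genes above the lower quartile or the median, the mean of probe sets, no _x_at or _s_at probe sets, a robust intensity trend, array weights, the replicate block, the RNA quality covariate, arrays 1 and 2 left out, and the median of chromosome neighbours subtracted.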

Additional observations from a re-analysis of the deposited data

Results flagged for a closer look

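In 3 of 24 groups of 5 arrays examined, 1 array stood apart from the other 4 by Dixon's gap ratio; about 1 in 20 such groups does so by chance. YAPS94A array 2 was the highest for GBP2 202748_at, at 8.97, and for GBP5 238581_at, at 3.87. YAPS94A array 3 was the lowest for GBP4 235175_at, at 7.44, and still lay above every empty vector array.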

How the results depend on the processing

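Over 22 alternatives GBP1 kept a negative difference (-0.415 to -0.23) and GBP4 a positive one (0.79 to 1.24). IDO1 ranged from -0.127 to -0.058 and GBP3 from -0.048 to 0.093. With the mean of all probe sets of a gene, GBP1, GBP2 and GBP4 moved to -0.23, -0.281 and 0.791, since that mean takes in the dim probe sets. Relative to chromosome neighbours GBP2, GBP4 and GBP5 moved to 0.0717, 1.24 and 0.182. Leaving out each array in turn gave -0.415 to -0.316 for GBP1 and 1.08 to 1.13 for GBP4. With empty vector array 1 left out GBP2 was at 0.0043. With the array number as a replicate block 4175 genes were higher and 3979 lower, beside 3688 and 3484 without it. The block leaves differences as they were, and of the genes named here it changed the calls of JAK2, TEK and COL1A1, which then passed as lower. Of the interferon gamma-induced genes 4 were lower and 20 higher without _x_at and _s_at probe sets, beside 8 and 29. That setting also left 7 GBP partner genes higher, beside 12, and 11 inflammatory genes lower, beside 17. It reads fewer probe sets, and genes no longer read are not told apart here from changed calls. Among genes above the median 6 kynurenine genes were lower, beside 10. Over the 22 alternatives 1 to 5 interferon gamma signalling genes were lower, beside 3, and 23 to 34 antiviral genes were higher, beside 33. JAK2 (0.291) and CXCL9 (0.167) turned positive relative to neighbours; the cause was not tested. For 62 named genes, 1290 of 1332 values kept both sign and call. Relative to neighbours CASP4, GSDMD and CXCL11 moved to 0.395, 0.316 and 0.615. With the mean of probe sets CYP1B1, LRRC8C, NLRP3, TDO2 and SLC16A10 moved to -0.292, -0.461, -0.298, -0.146 and -0.407. Without _x_at and _s_at probe sets CASP1 moved to 2.257 and SLC16A10 to -0.177. GBP5 and IDO1 have no value among genes above the median level. Without detection calls, the dim probe sets of GBP1, GBP5 and GBP6 cannot show a direction.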
